A study of Mus musculus with 6 samples.

Results

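Solute carriers are the membrane proteins that move nutrients, ions, metals, vitamins and metabolic products into and out of cells and organelles. Most work as facilitators, as cotransporters driven by an ion gradient or as exchangers, and families are numbered by sequence, so that each family tends to share a kind of substrate. Neutrophils take most of their energy from glycolysis, which needs glucose uptake through facilitators of the Slc2 family and lactate export through monocarboxylate transporters of the Slc16 family.

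The members were all protein-coding genes whose mouse symbol is Slc followed by a digit, with at least 10 counts in 3 or more of the 6 libraries. Of 371 such genes among the 21955 gene identifiers of the count files, 211 met this rule, in 46 families, and 64 had no count in any library. The rule reads symbols and counts only, and no value of the comparison between groups. It was set with earlier results of these data known, and it names Slc2a1, Slc2a3 and Slc16a3. The members with the lowest counts inside the limit, with exactly 10 counts in their third-highest library, were Slc13a3, Slc16a11, Slc27a2 and Slc32a1. Just outside it, with 9, stood Slc25a43, Slc34a1, Slc44a4 and Slc7a4. Of the 211 members, 209 passed the filter on low counts and were tested, and Slc13a3 and Slc16a11 were not. Slc9a3r1, Slc9a3r2, Slc4a1ap and Slc7a6os carry the symbol of a carrier to which they bind or lie next to, and are not carriers themselves. The rule keeps them as members, so they are included wherever carriers are counted below.

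The RNA-seq libraries, of poly-A RNA, were made from neutrophils that WT mice held in the dura mater, the outermost meninx, after a social threat. There were 3 female-labelled and 3 male-labelled libraries, all from exposed mice, with no unexposed group, no age given and no word on whether libraries came from separate or pooled animals. The comparison asks how the state of these neutrophils after the threat differs between the sexes.

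Library totals ran from 18555944 to 20778410 counts in the female-labelled group and from 17098026 to 18272577 in the male-labelled group. The labels meet a contradiction in the data. Over Ddx3y, Eif2s3y, Kdm5d and Uty, 4 genes of the Y chromosome, the summed level was 312 to 328 CPM (gene counts scaled to library size by TMM) in female-labelled libraries, against 307 to 318 CPM in male-labelled libraries. Groups are therefore named by their label only, and no difference below is a measured difference between the sexes. Female replicate 3 stood apart from the other female-labelled libraries (chi-square per degree of freedom 14.1 and 17.4, against 5.33 between those). Neutrophil markers, S100a8, S100a9, Ly6g and Csf3r among them, summed to 60503 to 77858 CPM in female-labelled libraries, against 53953 to 59543 CPM in male-labelled libraries. Of 12 neutrophil markers tested 9 were higher in female-labelled libraries by edgeR, against 7.29% of all genes tested. The number was 8 without female replicate 3, 7 without male replicate 1, and 6 without male replicate 2 or 3. The largest rises were those of Retnlg (2.38-fold), Il1r2 (2.11-fold), Mmp8 (1.95-fold) and Mmp9 (1.70-fold), and 0 markers were lower. The markers Ngp, Ltf and Camp did not pass (adjusted p = 0.384, 0.317 and 0.585 by edgeR). The part of more neutrophils, or of neutrophils in another state, in the higher Slc16a3, Slc2a1 and Slc2a3 reported below was not tested.

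Promoter sequences are shown for 4 carriers: Slc16a3, Slc2a1 and Slc7a11, which were among the carriers with higher levels in female-labelled libraries, and Slc20a1, the largest decrease among carriers counted above 100 CPM. They are RefSeq sequences of build GRCm38.p6, and each run gives the 250 bases before the annotated start, 5′ to 3′ on the gene's strand. Capitals in Slc16a3, Slc2a1 and Slc20a1 mark ACGTG or GCGTG on either strand, the core that hypoxia-inducible factors are known to bind. Capitals in Slc7a11 mark TGATGNAA on either strand, the composite element of CHOP and ATF4.
Slc16a3 (chr11:120948817-120949066, plus strand): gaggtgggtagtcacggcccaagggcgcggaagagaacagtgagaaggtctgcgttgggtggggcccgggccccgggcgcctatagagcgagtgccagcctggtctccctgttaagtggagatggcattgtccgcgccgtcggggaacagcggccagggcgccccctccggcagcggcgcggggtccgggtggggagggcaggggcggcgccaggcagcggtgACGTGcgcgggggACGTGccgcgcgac
Slc2a1 (chr4:119108495-119108744, plus strand): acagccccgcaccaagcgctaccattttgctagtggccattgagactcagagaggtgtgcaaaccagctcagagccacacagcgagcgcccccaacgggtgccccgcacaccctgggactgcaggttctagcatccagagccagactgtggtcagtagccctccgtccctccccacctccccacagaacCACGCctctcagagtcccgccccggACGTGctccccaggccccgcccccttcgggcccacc
Slc7a11 (chr3:50443614-50443863, minus strand): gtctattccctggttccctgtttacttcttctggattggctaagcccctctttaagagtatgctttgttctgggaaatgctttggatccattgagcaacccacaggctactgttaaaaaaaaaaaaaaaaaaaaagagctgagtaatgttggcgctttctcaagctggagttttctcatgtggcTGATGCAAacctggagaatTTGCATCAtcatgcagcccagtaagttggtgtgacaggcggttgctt
Slc20a1 (chr2:129198523-129198772, plus strand): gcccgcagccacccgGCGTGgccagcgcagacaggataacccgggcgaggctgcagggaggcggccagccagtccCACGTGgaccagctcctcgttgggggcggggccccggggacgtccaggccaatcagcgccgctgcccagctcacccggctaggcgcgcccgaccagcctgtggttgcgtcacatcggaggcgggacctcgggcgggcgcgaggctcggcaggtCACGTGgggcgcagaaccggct

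The hypoxia core was found 2 times before Slc16a3, 2 times before Slc2a1 and 5 times before Slc20a1, whose first listed promoter of 2 is shown and where 4 of the matches are the 2 strands of CACGTG, a palindrome that is also the E-box. It was therefore present before carriers that were higher and before one that was lower. Across all 32851 promoters of the same length 38.6% held it, against 51.6% of the 217 promoters listed for 162 of the 211 members, 10 of 19 promoters of carriers called higher and 8 of 14 of carriers called lower. The composite element occurs 2 times before Slc7a11, once on each strand, and in 3.45% of all promoters. It was present in 1 of the 19 promoters of carriers called higher and in 0 of the 14 of carriers called lower. The antioxidant response core TGACNNNGC, read on both strands and not marked, was in 2 of those 19 and 3 of those 14, against 10.2% of all promoters. A match is a description of letters and not a binding site.

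Female-labelled libraries had higher levels of the lactate exporter Slc16a3, of the glucose transporters Slc2a1 and Slc2a3, of the cystine importer Slc7a11 and of the iron exporter Slc40a1, and lower levels of the phosphate importer Slc20a1 and the mitochondrial glutamate carrier Slc25a22. Of 209 carriers tested 22 rose and 11 fell at an adjusted p under 0.05 by edgeR's quasi-likelihood test. Among all 11903 genes tested 7.29% rose and 6.62% fell, 13.9% in either direction, against 10.5%, 5.26% and 15.8% of the carriers. The share of carriers called was thus near that of all genes. Their median log2 change was 0.0071, against 0.0016 over all genes. Groups did not overlap for 35 carriers with female-labelled libraries above (16.7%, against 15.9% of all genes) and for 30 with them below (14.4%, against 15.0%). Called carriers came from 17 families and had a median fold of 1.35, with a lowest of 1.17 and a highest of 2.50. Changes of at least 1.5-fold were found for 5 of the carriers that rose and 2 of those that fell, and 5 of the 33 had overlapping groups.

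**Figure D1:**
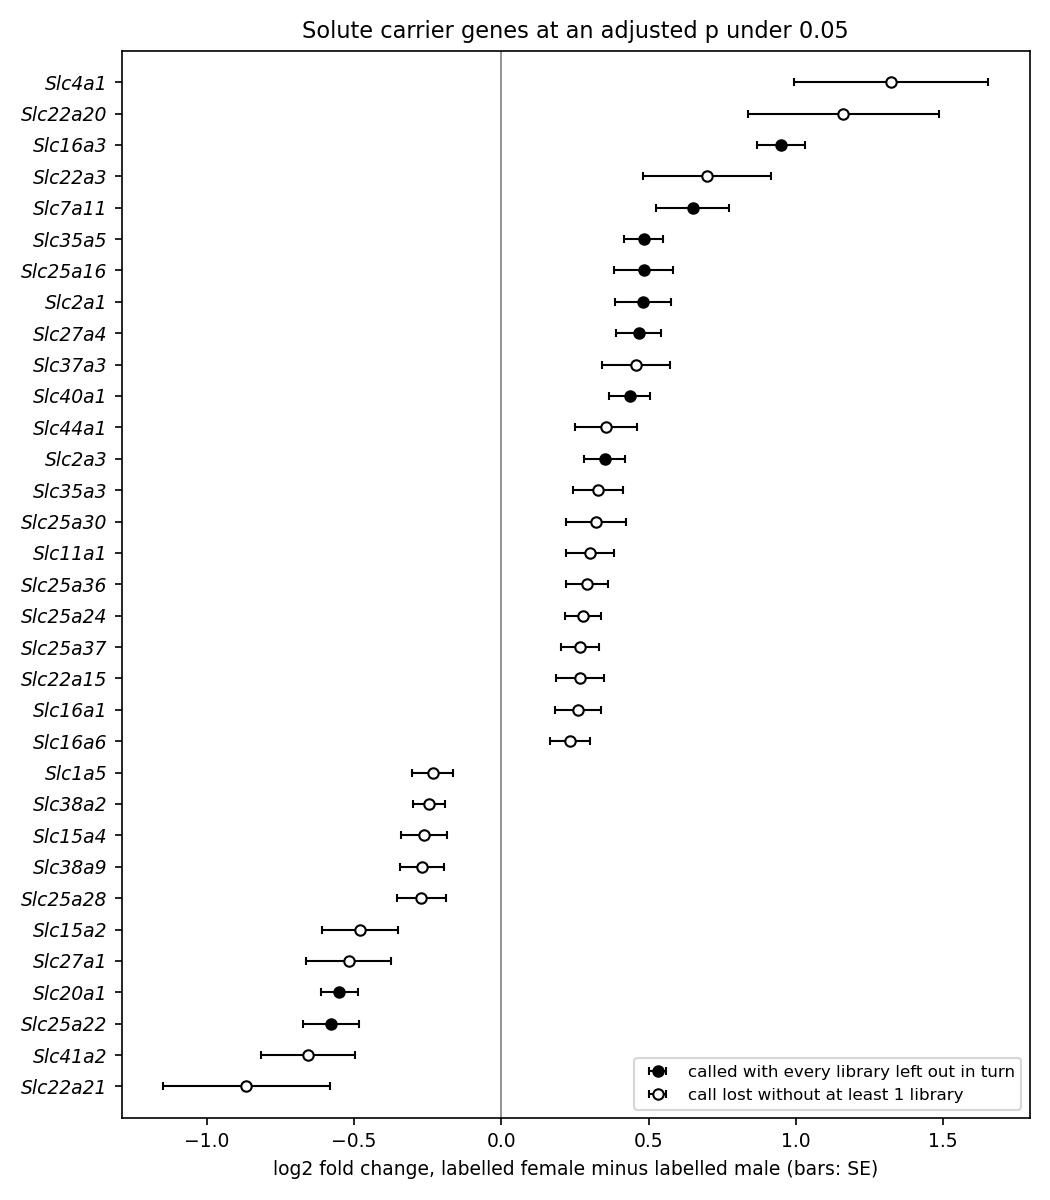
Log2 fold change (female-labelled minus male-labelled libraries, x axis; bars are SE) of the 33 carriers called, one per line, with 3 libraries per group. Filled points are the 10 carriers that were called with every library left out in turn, and open points the 23 that were not; 22 lie right of 0 and 11 left of it.

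The number of calls changed with the library left out. Without male replicate 1 or 3 there were 12 or 14 carriers higher in place of 22. The number lower was 5 without female replicate 1 or 2 or male replicate 3, 6 without male replicate 1 or 2, and 20 without female replicate 3, in place of 11. Without female replicate 3, 11.9% of all genes were called higher and 10.5% lower, and without male replicate 3, 3.64% higher and 3.87% lower. A fit to 5 libraries has less power, so losing a call does not show that it rested on that library. Of the 33 calls, 10 held without each library in turn, 8 higher and 2 lower, and no carrier among the 33 changed sign. These 10 were Slc16a3, Slc7a11, Slc35a5, Slc25a16, Slc2a1, Slc27a4, Slc40a1, Slc2a3, Slc20a1 and Slc25a22.

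**Figure D2:**
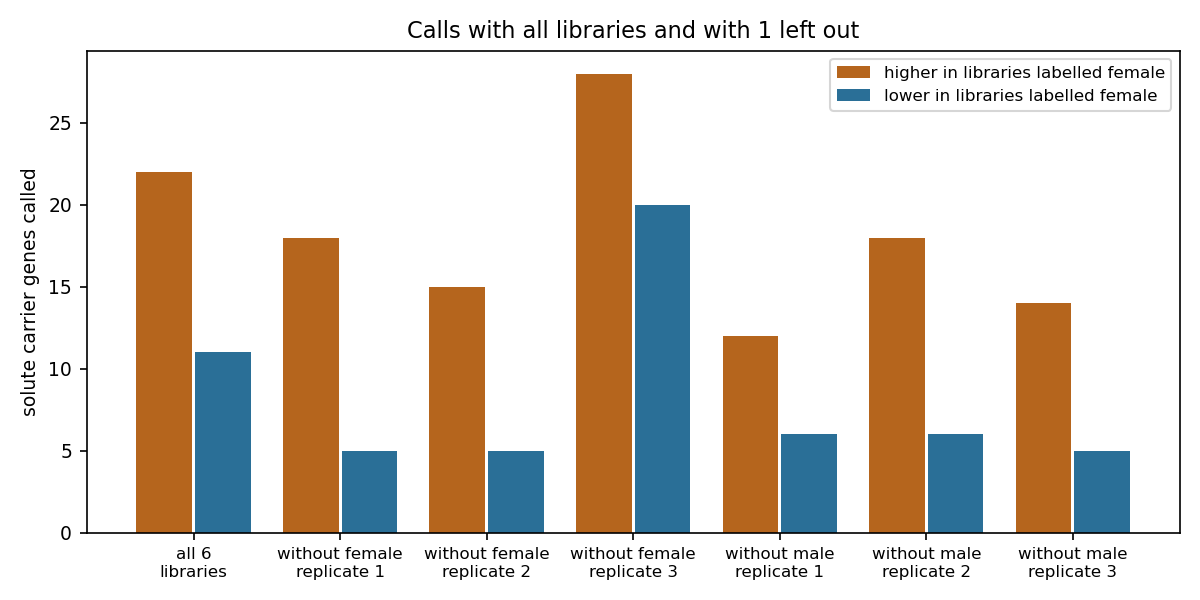
Number of solute carrier genes called at an adjusted p under 0.05 (y axis) with all 6 libraries and with 1 library left out (x axis), split by direction. The number higher ran from 12 to 28 and the number lower from 5 to 20.

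**Figure D3:**
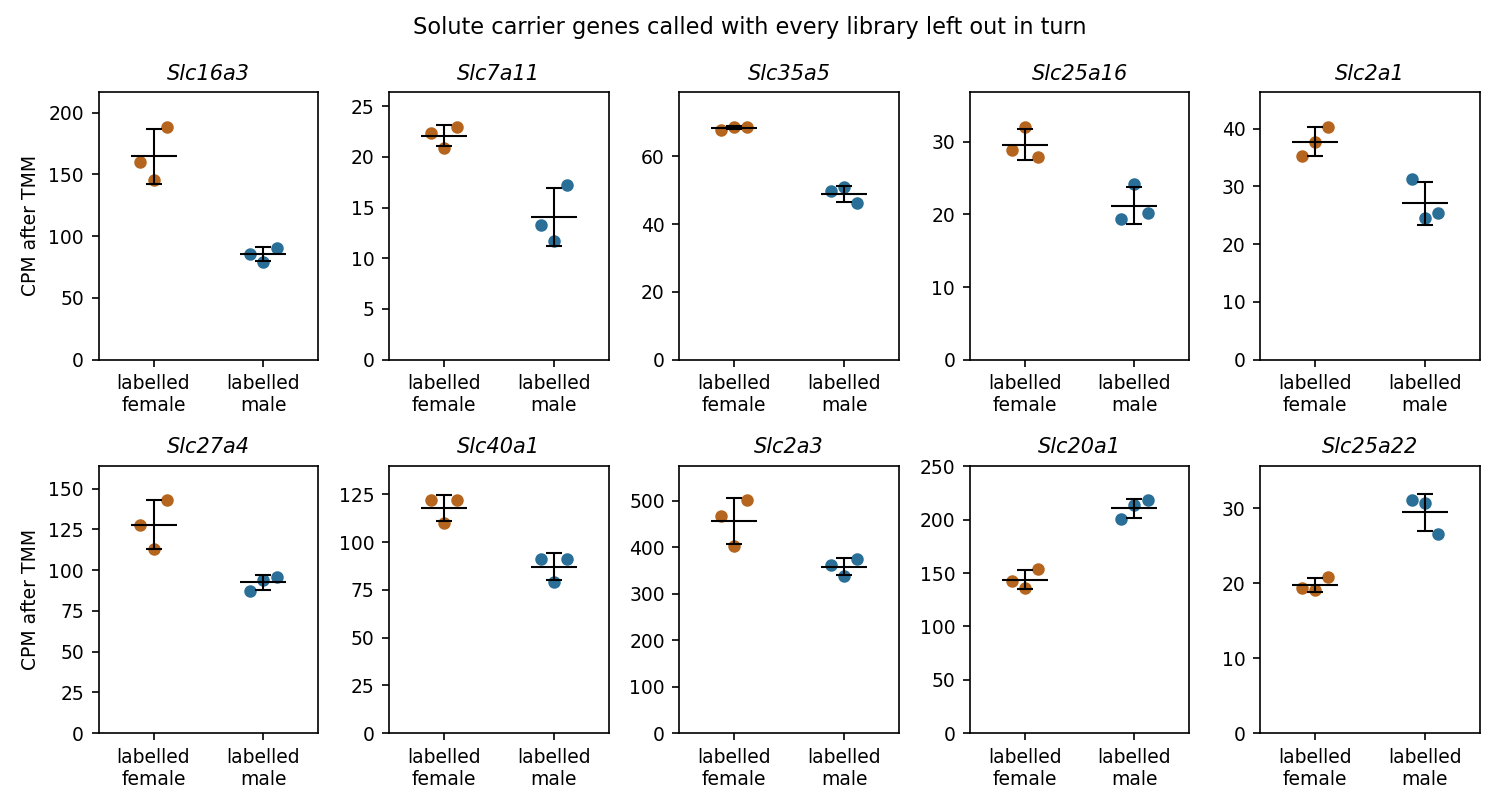
CPM after TMM scaling (y axis, from 0) in each library of the 10 carriers that were called with every library left out in turn. Points are libraries, and the line and bars are the mean ± SD of 3 libraries; in every panel the groups do not overlap.

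Organic acid carriers, a class that holds the whole Slc16 family, had the largest class median, with the exporter of lactate in front. Slc16a3 encodes MCT4, the proton-coupled exporter of lactate typical of glycolytic cells. It had 160.0, 145 and 189 CPM in female-labelled libraries, against 85.7, 79.3 and 90.6 CPM in male-labelled libraries. Every female-labelled library stood above every male-labelled one, and the gene rose 1.93-fold (log2 0.95, SE 0.0807, adjusted p = 6.37e-08 by edgeR), with a highest adjusted p of 9.01e-06 when any library was left out. Slc16a1, the lactate and pyruvate carrier MCT1, had 54.5, 60.3 and 51.1 CPM in female-labelled libraries, against 43.1, 49.3 and 46.2 CPM in male-labelled libraries. Its groups did not overlap and it rose 1.20-fold (log2 0.26, SE 0.0784, adjusted p = 0.031), a call lost without female replicate 1 (then at an adjusted p of 0.0529), female replicate 2 (0.184), male replicate 1 (0.157) or male replicate 3 (0.104). Slc16a6, which exports ketone bodies in zebrafish liver, rose 1.17-fold (log2 0.23, SE 0.0685, adjusted p = 0.0273), a call lost without female replicate 2 (then at an adjusted p of 0.109), male replicate 1 (0.0686), male replicate 2 (0.145) or male replicate 3 (0.0614). In the annotation 21.5% of the exon bases of Slc16a6 are shared with Amz2 on the opposite strand, and without strand their reads cannot be separated. Slc16a10, a carrier of aromatic amino acids that was kept in this class with its family, was just outside the threshold (log2 0.23, adjusted p = 0.0534). Slc16a7, the high-affinity pyruvate carrier MCT2, had 15.3 ± 1.23 CPM in female-labelled and 14.9 ± 0.853 CPM in male-labelled libraries, where ± is the SD of 3 libraries as in all such values (log2 0.04, adjusted p = 0.846). Of 7 organic acid carriers tested, all Slc16 genes, 3 rose and 0 fell by edgeR and by DESeq2. Among all genes tested by edgeR 7.29% rose and 6.62% fell. At an unadjusted p under 0.05 by edgeR 4 of the 7 were higher and 0 lower. After adjustment 1 of the 7 rose without female replicate 2, male replicate 1 or male replicate 3. The median log2 change of the 7 carriers was 0.23, against 0.0016 over all genes. The summed level of the 9 members of the class was 352, 352 and 374 CPM in female-labelled libraries, against 246, 254 and 259 CPM in male-labelled libraries. These sums include Slc16a3, the gene with the most counts in the class.

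Among sugar carriers both main glucose transporters rose. Slc2a3, which encodes the high-affinity glucose facilitator GLUT3, had 466, 403 and 500.4 CPM in female-labelled libraries, against 362, 338 and 374 CPM in male-labelled libraries. The groups did not overlap, and it rose 1.28-fold (log2 0.35, SE 0.0697, adjusted p = 0.00163 by edgeR; highest adjusted p with a library left out 0.0217). Slc2a1, the widely expressed facilitator GLUT1, had 35.3, 37.7 and 40.3 CPM in female-labelled libraries, against 31.3, 24.5 and 25.4 CPM in male-labelled libraries. The lowest female-labelled value lay above the highest male-labelled value, with a 1.39-fold rise (log2 0.48, SE 0.0957, adjusted p = 0.00171; highest 0.0199 with a library left out). Per kilobase of exon, Slc2a3 had 63.03 in female-labelled and 49.4 in male-labelled libraries, in CPM per kb, and Slc2a1 had 10.8 in female-labelled and 7.72 in male-labelled libraries. Slc2a3 therefore had the higher transcript level of the pair in both groups on that scale, and no protein was measured. Other Slc2 members, namely the intracellular facilitators Slc2a6 (log2 0.08, adjusted p = 0.65) and Slc2a8 (log2 0.16, adjusted p = 0.706) and the urate carrier Slc2a9 (log2 -0.13, adjusted p = 0.548), did not pass the test.

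Slc37a3 belongs to the Slc37 family, which was classed whole among sugar carriers. It had 16.6, 15.8 and 15.6 CPM in female-labelled libraries, against 12.3, 11.4 and 11.2 CPM in male-labelled libraries, without overlap, and rose 1.37-fold (log2 0.46, SE 0.114, adjusted p = 0.00983 by edgeR), a call lost without male replicate 3 (then at an adjusted p of 0.0502). Its relative Slc37a4, the glucose-6-phosphate translocase needed for normal neutrophil function, had 19.5 ± 1.55 CPM in female-labelled and 18.8 ± 1.68 CPM in male-labelled libraries (log2 0.05, adjusted p = 0.799). Of 14 sugar carriers tested 3 rose and 0 fell by edgeR, against 7.29% and 6.62% of all genes tested. The median log2 change was 0.11, and 1 carrier fell without female replicate 3. At an unadjusted p under 0.05 4 were higher and 1 lower in the fit to all libraries, and DESeq2 called the same 3 genes. Summed over the class, levels were 658, 605 and 712 CPM in female-labelled libraries, against 569, 519.9 and 561 CPM in male-labelled libraries. These sums include Slc2a3, the gene with the most counts in the class, which alone averaged 457 CPM in female-labelled and 358 CPM in male-labelled libraries.

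Genes that act beside these carriers were read from a list of 20 genes of carbohydrate handling. Of these 4 rose and 0 fell by edgeR, against 7.29% and 6.62% of all genes tested. Pgk1, a glycolytic kinase, rose 1.19-fold (log2 0.25, adjusted p = 0.00474). Ldha, the lactate dehydrogenase subunit that makes the lactate exported by MCT4, rose 1.19-fold (log2 0.25, adjusted p = 0.00888), a call lost without male replicate 2 (then at an adjusted p of 0.0821) or male replicate 3 (0.0536). Pygl, glycogen phosphorylase, rose 1.19-fold (log2 0.25, adjusted p = 0.0122), a call lost without male replicate 2 (then at an adjusted p of 0.101). Gbe1, the glycogen branching enzyme, rose 1.16-fold (log2 0.21, adjusted p = 0.0477), a call lost without female replicate 1 (then at an adjusted p of 0.11), female replicate 2 (0.07), male replicate 1 (0.205) or male replicate 3 (0.156). The count was 2 without male replicate 2 or 3 and 5 without female replicate 3, where 1 gene fell. At an unadjusted p under 0.05 8 were higher and 2 lower by edgeR, and the median log2 change was 0.07. Pkm (log2 0.13, adjusted p = 0.188), Gpi1 (log2 0.02, adjusted p = 0.846), Gapdh (log2 0.01, adjusted p = 0.917) and Pfkp (log2 -0.17, adjusted p = 0.0731) did not pass. Hk2, which phosphorylates the glucose taken up, had 119 ± 2.44 CPM in female-labelled and 123 ± 7.66 CPM in male-labelled libraries (log2 -0.04, adjusted p = 0.751). Among 12 partners and regulators of carriers, Emb, an ancillary protein of monocarboxylate transporters, rose 1.19-fold (log2 0.25, adjusted p = 0.00344) and Hif1a rose 1.23-fold (log2 0.30, adjusted p = 0.0039). Mlxip, a glucose-responsive transcription factor, fell (log2 -0.31, adjusted p = 0.00197), and 4 of the 12 fell without female replicate 3. Bsg, the chaperone that brings MCT1 and MCT4 to the membrane, had 146 ± 7.32 CPM in female-labelled and 136 ± 7.65 CPM in male-labelled libraries and did not pass (log2 0.10, adjusted p = 0.323), nor did Txnip, which promotes removal of GLUT1 from the membrane (log2 -0.12, adjusted p = 0.161). Atf4, a factor of the composite element marked before Slc7a11, had 443 ± 48.8 CPM in female-labelled and 507 ± 15.5 CPM in male-labelled libraries. Its groups overlapped and it did not pass (log2 -0.19, adjusted p = 0.0626 by edgeR).

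Among carriers of amino acids and peptides 5 of 31 fell and 1 rose, against 6.62% and 7.29% of all genes tested. Slc7a11, the light chain of the exchanger that takes up cystine and releases glutamate, was the exception. It had 22.4, 20.9 and 22.96 CPM in female-labelled libraries, against 13.3, 11.7 and 17.3 CPM in male-labelled libraries. No library of one group reached the other, and the gene rose 1.57-fold (log2 0.65, SE 0.124, adjusted p = 0.00118 by edgeR; highest 0.0133 with a library left out). Its heavy chain Slc3a2, shared with other exchangers, had 117 ± 4.24 CPM in female-labelled and 125 ± 2.83 CPM in male-labelled libraries (log2 -0.10, adjusted p = 0.275), and the leucine exchanger Slc7a5 had 28.7 ± 1.49 CPM in female-labelled and 28.6 ± 1.04 CPM in male-labelled libraries (log2 0.01, adjusted p = 0.965). Slc38a2, the sodium-coupled neutral amino acid transporter SNAT2, had 387, 370.2 and 368 CPM in female-labelled libraries, against 434, 459 and 442 CPM in male-labelled libraries. Those groups did not overlap, with a log2 change of -0.25 (SE 0.0554, adjusted p = 0.00474), a call lost without male replicate 2 (then at an adjusted p of 0.0502). Slc1a5, the glutamine carrier ASCT2, had 98.9, 110.2 and 124 CPM in female-labelled libraries, against 128, 129.6 and 134 CPM in male-labelled libraries, again without overlap (log2 -0.23, adjusted p = 0.032). That call was lost without female replicate 1 (then at an adjusted p of 0.165), female replicate 2 (0.0885), male replicate 1 (0.0847), male replicate 2 (0.0899) or male replicate 3 (0.145).

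Slc38a9 is the lysosomal arginine sensor of the mTORC1 pathway. Its levels were 46.7, 41.6 and 46.3 CPM in female-labelled libraries, against 54.4, 51.05 and 56.6 CPM in male-labelled libraries (log2 -0.27, SE 0.0744, adjusted p = 0.0189 by edgeR), a decrease without overlap that was lost without female replicate 2 (then at an adjusted p of 0.123), male replicate 1 (0.072) or male replicate 3 (0.111). Slc15a4, an endolysosomal histidine and peptide transporter needed for Toll-like receptor responses of plasmacytoid dendritic cells and B cells, had 31.6, 33.4 and 33.6 CPM in female-labelled libraries, against 40.4, 39.6 and 38.3 CPM in male-labelled libraries. It fell (log2 -0.26, SE 0.0768, adjusted p = 0.026), a call lost without female replicate 1 (then at an adjusted p of 0.098), female replicate 2 (0.0671), male replicate 1 (0.0984), male replicate 2 (0.0862) or male replicate 3 (0.0619). For Slc15a2, the peptide importer PEPT2, the values were 9.84, 11.4 and 9.03 CPM in female-labelled libraries, against 13.6, 15.3 and 13.3 CPM in male-labelled libraries. It fell too (log2 -0.48, SE 0.130, adjusted p = 0.0162), and that call was lost without female replicate 1 (then at an adjusted p of 0.0529) or male replicate 2 (0.0888). The groups of both peptide carriers did not overlap. In the whole class decreases numbered 2 without female replicate 1 or 2 or male replicate 1 or 3, and 1 without male replicate 2, and 3 rose without female replicate 3. The median log2 change was -0.08, and the summed level was 1507, 1499 and 1489 CPM in female-labelled libraries, against 1602, 1625 and 1629 CPM in male-labelled libraries.

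Markers of other cells were read beside this class, and no link between them and the class was tested. Of 10 B cell markers 8 were lower in female-labelled libraries, with a sum of 163 to 231 CPM in female-labelled libraries, against 278 to 341 CPM in male-labelled libraries. Of 8 dendritic cell markers tested 5 were lower, with a sum of 211 to 217 CPM in female-labelled libraries, against 304 to 322 CPM in male-labelled libraries. Siglech, the marker of plasmacytoid dendritic cells, had 91.8 ± 5.90 CPM in female-labelled and 142 ± 5.93 CPM in male-labelled libraries (SD, n = 3). None of the defining markers of either list was at 0. T and NK cell markers summed to 157 to 185 CPM in female-labelled libraries, against 166 to 194 CPM in male-labelled libraries, with 1 of 9 lower. Mast cell markers, with Tpsb2 and Mcpt4 at 0 throughout, summed to 96.6 to 107 CPM in female-labelled libraries, against 97.4 to 110.4 CPM in male-labelled libraries, and endothelial markers to 47.1 to 56.8 CPM in female-labelled libraries, against 58.8 to 63.02 CPM in male-labelled libraries. In such bulk samples fewer cells of a type and less RNA per cell cannot be told apart, and the part of these cells in the lower Slc15a4 was not tested.

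Metal carriers were led by Slc40a1, ferroportin, the exporter of iron from cells. It had 122, 110.0 and 122 CPM in female-labelled libraries, against 91.1, 78.99 and 91.2 CPM in male-labelled libraries, so all female-labelled libraries stood above all male-labelled ones. The gene rose 1.35-fold (log2 0.44, SE 0.0694, adjusted p = 0.000181 by edgeR), with a highest adjusted p of 0.00417 when a library was left out. Slc11a1, the metal pump NRAMP1 of the phagosome membrane, had 47.9, 45.4 and 54.6 CPM in female-labelled libraries, against 37.8, 39.7 and 42.5 CPM in male-labelled libraries and rose 1.23-fold without overlap (log2 0.30, SE 0.0818, adjusted p = 0.0171), a call lost without male replicate 1 (then at an adjusted p of 0.0949) or male replicate 2 (0.0652). Slc41a2, a magnesium transporter, fell, with 7.94, 5.14 and 7.64 CPM in female-labelled libraries, against 10.6, 11.2 and 10.8 CPM in male-labelled libraries. These groups did not overlap (log2 -0.66, SE 0.160, adjusted p = 0.00848), and the call was lost without female replicate 2 (then at an adjusted p of 0.0602). Slc11a2, the divalent metal importer DMT1, had 8.72 ± 1.41 CPM in female-labelled and 7.84 ± 1.73 CPM in male-labelled libraries (log2 0.15, adjusted p = 0.606), and the haem carrier Slc48a1 had 66.99 ± 3.44 CPM in female-labelled and 65.2 ± 3.72 CPM in male-labelled libraries (log2 0.04, adjusted p = 0.76). No zinc exporter of the 6 Slc30 genes and no zinc importer of the 11 Slc39 genes passed the test, by edgeR or DESeq2, with 0 and 2 of them higher at an unadjusted p under 0.05 and median log2 changes of 0.08 and 0.13. Over the 26 genes of the class 2 rose and 1 fell, against 7.29% and 6.62% of all genes tested. There was 1 higher without male replicate 1 or 2, 5 higher without female replicate 3 and 0 lower by edgeR without female replicate 2. The median was 0.13 and the summed level 849.6, 836 and 856 CPM in female-labelled libraries, against 775, 769 and 776 CPM in male-labelled libraries. Macrophage and monocyte markers, of cells that also express ferroportin and NRAMP1, summed to 2286 to 2343 CPM in female-labelled libraries, against 2046 to 2109 CPM in male-labelled libraries. Of these, 2 of 10 were higher (1 without female replicate 1 or 2 or male replicate 2 or 3) and 0 lower. The higher ones were Ccr2, with 879 ± 58.7 CPM in female-labelled and 613 ± 28.4 CPM in male-labelled libraries, and Adgre1 (59.5 ± 3.61 and 50.4 ± 3.64 CPM). Neither Ly6c2 (1126 ± 74.1 and 1160 ± 23.8 CPM) nor Csf1r (216 ± 6.48 and 220 ± 1.35 CPM) passed the test. The part of such cells in the higher Slc40a1 and Slc11a1 was not tested.

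Carriers of inorganic ions had the lowest class median (-0.14). Of 31 genes 1 was called in each direction, against 7.29% of all genes tested higher and 6.62% lower. At an unadjusted p under 0.05 by edgeR 2 were higher and 9 lower. Slc20a1 encodes PiT-1, a sodium-coupled importer of phosphate. It had 142, 136 and 153 CPM in female-labelled libraries, against 200.3, 213 and 218 CPM in male-labelled libraries, far apart and without overlap, and fell by 0.55 in log2 units (SE 0.0624, adjusted p = 2.83e-06 by edgeR; highest 0.000196 with a library left out). In the annotation 8.10% of its exon bases lie opposite a non-coding gene. Its paralogue Slc20a2 had 12.3 ± 0.477 CPM in female-labelled and 12.9 ± 0.710 CPM in male-labelled libraries (log2 -0.07, adjusted p = 0.74), and Xpr1, the phosphate exporter, was higher (log2 0.20, adjusted p = 0.0434), a call lost without female replicate 1 (then at an adjusted p of 0.147), female replicate 2 (0.0867), male replicate 1 (0.0629), male replicate 2 (0.171) or male replicate 3 (0.155). Slc4a1, band 3 of red blood cells, had 1.85, 2.72 and 2.53 CPM in female-labelled libraries, against 0.847, 0.798 and 1.19 CPM in male-labelled libraries. It rose 2.50-fold (log2 1.32, SE 0.330, adjusted p = 0.0099), a call lost without female replicate 2 (then at an adjusted p of 0.0561) or male replicate 2 (0.0503). Erythroid markers moved with it. Over the 8 found in the files, Slc4a1 included, the sum was 36.3 to 66.2 CPM in female-labelled libraries, against 19.5 to 24.96 CPM in male-labelled libraries, and 4 of 7 tested were higher, of which the globin Hbb-bs rose 2.90-fold (log2 1.54, adjusted p = 1.54e-05). Their part in the Slc4a1 value was not tested. In the class the number lower was 2 without male replicate 2 and 5 without female replicate 3, and the number higher 0 without female replicate 2 or male replicate 2. Summed levels were 893, 883 and 914 CPM in female-labelled libraries, against 981, 971 and 973 CPM in male-labelled libraries. These sums include Slc20a1, the gene with the most counts in the class.

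Mitochondrial carriers of the Slc25 family were the largest class, with 40 genes. Of these 5 rose and 2 fell, against 7.29% and 6.62% of all genes tested. Slc25a22, which brings glutamate into mitochondria, had 19.4, 19.1 and 20.8 CPM in female-labelled libraries, against 31.1, 30.7 and 26.6 CPM in male-labelled libraries. It fell without overlap (log2 -0.58, SE 0.0952, adjusted p = 0.000252 by edgeR; highest 0.00385 with a library left out). Slc25a16, a carrier linked to coenzyme A uptake, had 28.8, 32.1 and 27.97 CPM in female-labelled libraries, against 19.3, 24.1 and 20.1 CPM in male-labelled libraries, again without overlap, and rose 1.40-fold (log2 0.48, SE 0.101, adjusted p = 0.00251; highest 0.0255). Slc25a24, an ATP-magnesium and phosphate exchanger, rose 1.21-fold (log2 0.28, SE 0.0618, adjusted p = 0.00435), a call lost without male replicate 2 (then at an adjusted p of 0.0541). The pyrimidine nucleotide carrier Slc25a36 rose 1.22-fold (log2 0.29, adjusted p = 0.00861), lost without female replicate 1 (then at an adjusted p of 0.0539), male replicate 1 (0.054) or male replicate 3 (0.0597). Slc25a30, first described in mouse kidney, rose 1.25-fold with overlapping groups (log2 0.32, adjusted p = 0.0377), lost without female replicate 1 (then at an adjusted p of 0.0943), female replicate 2 (0.166), male replicate 1 (0.154) or male replicate 3 (0.163).

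The pair of mitochondrial iron importers went opposite ways. Slc25a37, mitoferrin 1, had 106, 112 and 115 CPM in female-labelled libraries, against 86.5, 98.3 and 91.4 CPM in male-labelled libraries and was higher (log2 0.27, adjusted p = 0.0087 by edgeR), a call lost without male replicate 1 (then at an adjusted p of 0.0742) or male replicate 3 (0.0546). Slc25a28, mitoferrin 2, had 57.8, 60.8 and 76.1 CPM in female-labelled libraries, against 74.7, 82.2 and 78.3 CPM in male-labelled libraries, with overlapping groups, and was lower (log2 -0.27, adjusted p = 0.0351), a call lost without female replicate 1 (then at an adjusted p of 0.157), female replicate 2 (0.149), male replicate 1 (0.0663), male replicate 2 (0.143) or male replicate 3 (0.115). Slc25a3, the phosphate carrier that feeds ATP synthesis and the member of the class with the most counts, had 373, 394 and 426 CPM in female-labelled libraries, against 428, 457 and 443 CPM in male-labelled libraries. Its groups did not overlap, but it did not pass the test (log2 -0.15, adjusted p = 0.0946), except without female replicate 3 (adjusted p = 0.00159). For the adenine nucleotide exchanger Slc25a5 the means were 339 ± 12.7 CPM in female-labelled and 343 ± 10.6 CPM in male-labelled libraries (log2 -0.02, adjusted p = 0.87). The class had a median log2 change of 0.02 and summed levels that overlapped, 1925, 1944 and 1993 CPM in female-labelled libraries, against 1912, 1942 and 1918 CPM in male-labelled libraries. Its count of increases was 3 without female replicate 1 and 2 without male replicate 1 or 3, and that of decreases 1 without any library other than female replicate 3. Mitochondrially encoded transcripts, whose share can move with RNA quality, took 6.42% to 8.49% of counts in female-labelled and 10.7% to 13.1% in male-labelled libraries. With them left out of the library sizes the 33 called carriers were the same.

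**Figure D4:**
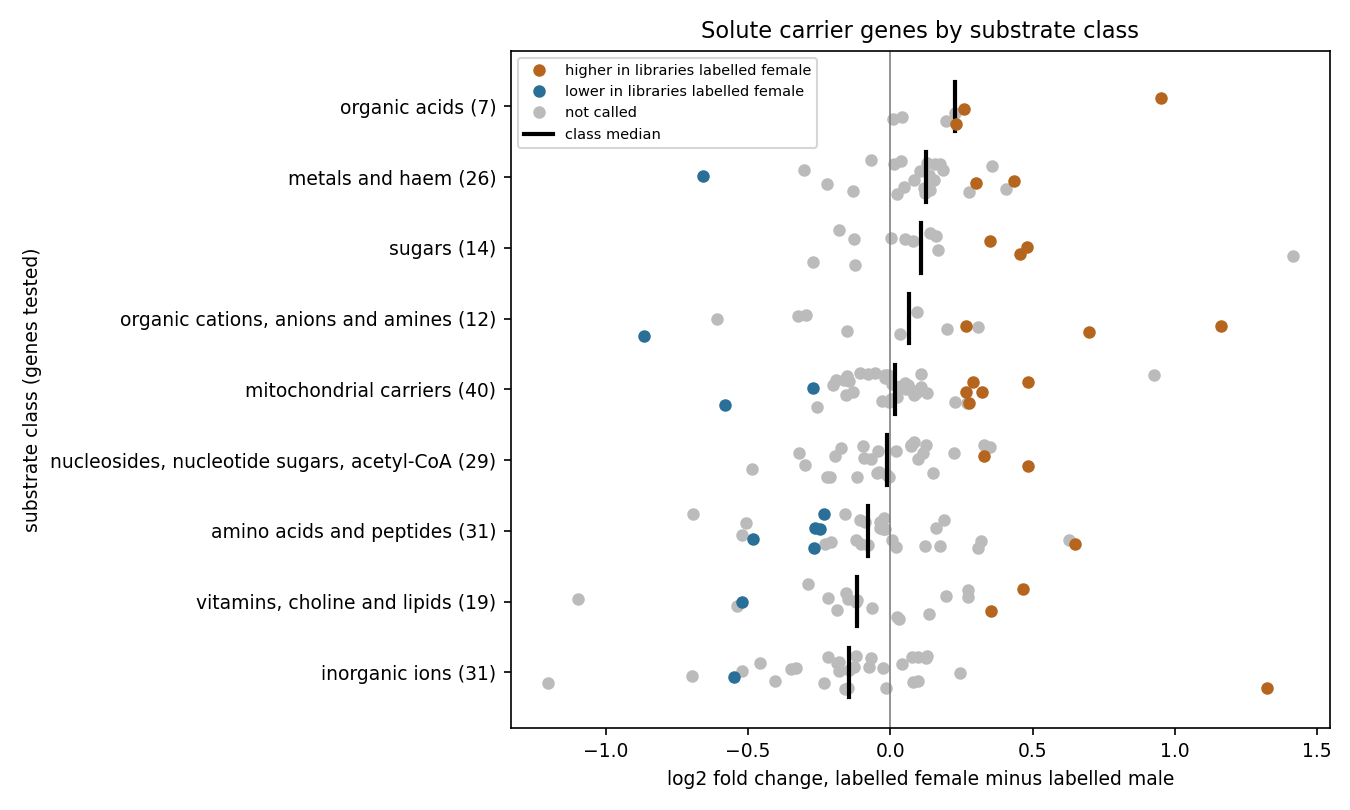
Log2 fold change (female-labelled minus male-labelled libraries, x axis) of the 209 tested carriers by substrate class (y axis, number tested in brackets). Each point is a gene and each bar a class median, which ran from -0.14 for inorganic ions to 0.23 for organic acids.

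Carriers of nucleosides, nucleotide sugars and acetyl-CoA had 2 increases and no decrease by edgeR among 29 genes, against 7.29% and 6.62% of all genes tested. DESeq2 gave the same, and 5 were higher and 3 lower by edgeR at an unadjusted p under 0.05. Slc35a5, a Golgi nucleotide-sugar transporter, had 67.9, 68.6 and 68.5 CPM in female-labelled libraries, against 49.7, 50.8 and 46.2 CPM in male-labelled libraries. The spread within each group was small and the groups were apart, with a 1.40-fold rise (log2 0.48, SE 0.0674, adjusted p = 3.85e-05; highest 0.00128 with a library left out). Slc35a3, which supplies UDP-N-acetylglucosamine to the Golgi, rose 1.26-fold with overlapping groups (log2 0.33, adjusted p = 0.0139), a call lost without female replicate 2 (then at an adjusted p of 0.0767), male replicate 1 (0.0978) or male replicate 3 (0.115). Slc35e1, with the most counts in the class, had 137, 126 and 138 CPM in female-labelled libraries, against 124, 120.3 and 117 CPM in male-labelled libraries, without overlap, and did not pass (log2 0.15, adjusted p = 0.111). The equilibrative nucleoside transporter Slc29a1 had 12.9 ± 0.981 CPM in female-labelled and 15.9 ± 2.01 CPM in male-labelled libraries (log2 -0.30, adjusted p = 0.115). The class median was -0.01. Increases numbered 1 without female replicate 2 or male replicate 1 or 3 and 4 without female replicate 3, where 1 gene fell.

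Vitamin, choline and lipid carriers included opposite changes of fatty acid transport proteins. Slc27a4, FATP4, had 128, 113 and 143 CPM in female-labelled libraries, against 87.5, 94.2 and 96.1 CPM in male-labelled libraries and rose 1.38-fold without overlap (log2 0.47, SE 0.0752, adjusted p = 0.000208 by edgeR; highest 0.00563 with a library left out). Slc27a1, FATP1, had 9.10, 12.9 and 12.7 CPM in female-labelled libraries, against 14.4, 15.9 and 19.6 CPM in male-labelled libraries. It was lower without overlap (log2 -0.52, SE 0.144, adjusted p = 0.0192), a call lost without female replicate 1 (then at an adjusted p of 0.107) or male replicate 3 (0.147). Slc44a1, a choline transporter, rose 1.28-fold (log2 0.36, adjusted p = 0.0299), lost without female replicate 3 (then at an adjusted p of 0.0783), male replicate 2 (0.0858) or male replicate 3 (0.12). Slc44a2, its relative that carries a human neutrophil antigen and the member of the class with the most counts, had 242, 245 and 263 CPM in female-labelled libraries, against 264, 283 and 284 CPM in male-labelled libraries, without overlap, and did not pass (log2 -0.15, adjusted p = 0.106), except without female replicate 3 (adjusted p = 0.00582). The reduced folate carrier Slc19a1 had 6.62 ± 0.705 CPM in female-labelled and 6.49 ± 1.04 CPM in male-labelled libraries (log2 0.03, adjusted p = 0.932). Of 19 genes 2 rose and 1 fell, against 7.29% and 6.62% of all genes tested, with a class median of -0.12. The number higher was 1 without female replicate 3 or male replicate 2 or 3, and the number lower 0 without female replicate 1 or male replicate 3 and 2 without female replicate 3.

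Among carriers of organic cations, organic anions and amines, all 4 genes called were of the Slc22 family, which makes up 9 of the 12 genes of the class. Slc22a20, an organic anion transporter of olfactory mucosa, had 1.80, 2.82 and 3.77 CPM in female-labelled libraries, against 1.07, 1.20 and 1.49 CPM in male-labelled libraries, and rose without overlap (log2 1.16, SE 0.324, adjusted p = 0.0202 by edgeR), a call lost without female replicate 2 (then at an adjusted p of 0.0582), female replicate 3 (0.0935), male replicate 1 (0.0745) or male replicate 2 (0.0656). Slc22a21, a carnitine transporter, had 1.85, 1.76 and 1.59 CPM in female-labelled libraries, against 4.35, 2.57 and 2.56 CPM in male-labelled libraries. It fell without overlap (log2 -0.87, SE 0.283, adjusted p = 0.0463), and the call was lost without any single library, with adjusted p from 0.0512 to 0.254. Slc22a15, with the most counts in the class, had 74.8, 63.3 and 77.4 CPM in female-labelled libraries, against 56.4, 57.03 and 65.8 CPM in male-labelled libraries, with overlapping groups (log2 0.27, adjusted p = 0.0314), and its call was lost without female replicate 1 (then at an adjusted p of 0.096), male replicate 1 (0.153) or male replicate 2 (0.137). Slc22a3, the monoamine transporter OCT3, also overlapped (log2 0.70, adjusted p = 0.0356), with the call lost without female replicate 2 (then at an adjusted p of 0.129), female replicate 3 (0.0783), male replicate 1 (0.133) or male replicate 2 (0.13). Its exons share 9.31% of their bases with Plg on the opposite strand. Of 12 genes 3 rose and 1 fell, against 7.29% and 6.62% of all genes tested. The number higher was 1 without female replicate 2 and 0 by edgeR without male replicate 1 or 2, and the number lower 0 by edgeR without any of the 6 libraries. At an unadjusted p under 0.05 4 were higher and 2 lower in the fit to all libraries. Slc22a6 and Slc47a1, markers of the fibroblast barrier of the meninges, had no count in any library. All 10 stromal markers summed to 15.7 to 22.5 CPM in female-labelled libraries, against 20.3 to 31.2 CPM in male-labelled libraries, and Slc6a13, another of them, had 5.45 ± 0.824 CPM in female-labelled and 5.53 ± 1.52 CPM in male-labelled libraries (log2 -0.02, adjusted p = 0.964).

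Per kilobase of exon, the scale on which genes can be set side by side, carriers were ranked by the mean of both groups, and Slc25a5, Slc25a3 and Slc9a3r1 ranked highest. Slc25a5 had 206 in female-labelled and 208 in male-labelled libraries (CPM per kb), Slc25a3 71.7 in female-labelled and 79.8 in male-labelled libraries, and the scaffold gene Slc9a3r1 61.6 in female-labelled and 56.5 in male-labelled libraries. Slc2a3, given above, was next on that mean and stood above Slc9a3r1 in female-labelled libraries. The amino acid carrier Slc38a2 had 42.5 in female-labelled and 50.4 in male-labelled libraries, above Slc2a3 in male-labelled libraries. Of the 12 most abundant on this scale 2 were called higher, Slc2a3 and Slc25a24, and 3 lower, Slc38a2, Slc20a1 and Slc1a5. The exon lengths are those of an older annotation, so this order is approximate.

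Transporters that carry no Slc symbol were read from a list of 36, of which 33 were tested. There 3 rose and 4 fell, against 7.29% and 6.62% of all genes tested, with 6 higher without female replicate 3 and 2 lower without male replicate 3. Slco4a1, an organic anion transporter, had 52.9 ± 7.10 CPM in female-labelled and 90.8 ± 5.19 CPM in male-labelled libraries and fell (log2 -0.78, adjusted p = 9.83e-07 by edgeR). Mfsd14b, an orphan carrier, rose 1.26-fold (log2 0.34, adjusted p = 0.00042), and Flvcr1, a haem and choline carrier, rose 1.26-fold (log2 0.34, adjusted p = 0.00195). The mitochondrial pyruvate carrier subunits Mpc1 and Mpc2 did not pass (log2 0.11, adjusted p = 0.721 and log2 0.11, adjusted p = 0.422). The calls of Slco4a1, Mfsd14b and Flvcr1 held without each library.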

How the data were processed

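Members and gene lists were chosen with earlier results of these data known. The authors deposited raw counts per gene for 6 libraries, with no normalization. Per the submitters' processing notes, cutadapt 1.15, HISAT2 2.0.5 and GRCm39 were used, with no role stated. How reads were counted, with strand or not, is not given in the sources used, and values of close paralogues are therefore uncertain.

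Symbols, gene types and exon lengths came from GENCODE M21, an annotation of the older build GRCm38, which named 21898 of 21955 identifiers; genes given Slc symbols later are not included. Counts were fitted with edgeR 4.0.16 in R 4.3.3 (filterByExpr with a minimum count of 10, TMM, quasi-likelihood test, group as only term, Benjamini-Hochberg over all 11903 genes tested, threshold 0.05). The common biological coefficient of variation was 0.0696. CPM use TMM library sizes. Log2 fold changes are female-labelled minus male-labelled, with an SE of the absolute change over the square root of F. Errors are SD of 3 libraries. The labels do not tie libraries to animals, so p-values reflect only how these libraries vary, which may be technical. Libraries of a group differed by more than counting noise (chi-square of at least 4.19 per degree of freedom), so none was treated as a second deposit of another; this does not show that they are separate animals.

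Substrate classes were assigned by family, and by gene in some families of mixed substrates such as Slc5 and Slc17. The Slc16 family was kept whole among organic acids, Slc16a10 included. Named genes were Slc2a1, Slc2a3 and Slc16a3; the 8 largest called changes per direction without overlap and averaging at least 1 on the log2 CPM scale; and, per class, the called gene of smallest p and the gene with the most counts. Others were picked with their values known. The alternatives tried were DESeq2 1.42.0, other size factors, other filters, an adjusted p under 0.01, no mitochondrially encoded genes, a replicate block and each library left out. The fit was checked on simulated counts. Trac, Cxcr2, Ahsp and Ankh of the lists were not analysed here.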

Additional observations from a re-analysis of the deposited data

How the results depend on the processing

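The 33 called carriers were the same with DESeq2, with DESeq2 size factors or upper-quartile factors in edgeR, and without mitochondrially encoded genes. With no filter on low counts all 33 were called and 7 more (26 higher, 14 lower). A filter of 10 CPM in 3 libraries left 132 carriers, of which 19 were higher and 11 lower, and took Slc22a3, Slc22a20, Slc22a21 and Slc4a1 out of the test. At an adjusted p under 0.01 there were 13 higher and 4 lower carriers, in place of 22 and 11. With 1 library left out the number higher ran from 12 to 28 and the number lower from 5 to 20. Over 36 genes and the 500 single-gene alternatives, 412 kept direction and side of the threshold, 86 lost the call, 2 gained one and 0 reversed.

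Same-numbered libraries of the groups shared only a number: deviations from the group means correlated at -0.035, 0.092 and 0.076 for numbers 1, 2 and 3, and female replicate 1 correlated best with male replicate 2. With a replicate block 27 carriers were higher and 12 lower, all 33 calls among them. Depth was 17098026 to 20778410 counts a library. Calls were lost with 1 library left out at low levels (Slc22a20, Slc22a21, Slc22a3 and Slc4a1, under 7 CPM in both groups) and at higher ones (Slc1a5, Slc25a28 and Slc15a4, each in 5 of 6 fits), and no relation to depth was tested.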

Other observations

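Some carriers at low levels had large changes that missed the threshold. Slc45a3, a sucrose transporter family member known as a prostate protein in humans, had 0.846, 1.26 and 0.992 CPM in female-labelled libraries, against 0.226, 0.684 and 0.238 CPM in male-labelled libraries, without overlap (log2 1.41, adjusted p = 0.058 by edgeR). Slc25a33, a mitochondrial pyrimidine nucleotide carrier, had 2.12 ± 0.273 CPM in female-labelled and 1.11 ± 0.728 CPM in male-labelled libraries with overlapping groups (log2 0.93, adjusted p = 0.112). Slc12a3, the sodium chloride cotransporter targeted by thiazides in kidney, had 0.688 ± 0.378 CPM in female-labelled and 1.61 ± 1.08 CPM in male-labelled libraries, again with overlap (log2 -1.20, adjusted p = 0.123).

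At a higher level, Slc29a3, a lysosomal nucleoside transporter, had 60.4, 60.3 and 52.9 CPM in female-labelled libraries, against 63.9, 68.3 and 66.4 CPM in male-labelled libraries, with female-labelled libraries below and no overlap (log2 -0.19, adjusted p = 0.0721).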
